A study of Mus musculus with 51 samples.

Results

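Peaks of 3 histone marks were followed through meiotic prophase at 9 genes that encode somatic and testis isoforms of glycolytic enzymes: Ldha, Ldhb, Ldhc, Gapdh, Gapdhs, Eno1, Eno4, Pgam1 and Pgam2. They were chosen by name, as 5 genes expressed widely in the body (Ldha, Ldhb, Gapdh, Eno1, Pgam1) and 4 counterparts known from male germ cells or, for Pgam2, from muscle and testis (Ldhc, Gapdhs, Eno4, Pgam2). They made up 9 of the 20698 protein-coding genes of GENCODE M21 on chromosomes 1 to 19. A gene was called marked in a library when a peak touched the 500 bp on either side of any 5′ end of its protein-coding transcripts, and the 9 genes had 35 such ends.

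Chromatin was immunoprecipitated and sequenced (ChIP-Seq) from fixed nuclei that had been separated by fluorescence-activated sorting, from whole testes of wild-type, adult, male C57Bl/6J mice. All populations were post-replicative nuclei (4C) positive for SCP3. Leptonema was sorted in a run of its own with STRA8, and zygonema, early pachynema, late pachynema and diplonema in a run with H1t and SCP1. Whole nuclei of a stage were measured together, so a population that was not fully pure can hold marks of neighbouring stages or other cells, and a mark in few nuclei cannot be told apart from a weaker mark in all. There were 10 lists for H3K4me3 (EpiCypher antibody, experiments 1 and 2 at each of the 5 stages), 5 lists for H3K4me2/3 (Abcam antibody, experiment 2) and 5 lists for H3K9ac (experiment 1). The antibody field of the H3K9ac samples names H3K4me3. Their titles and the methods of the study name H3K9ac and were followed here.

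Glycolysis turns glucose into pyruvate, and lactate dehydrogenase interconverts pyruvate and lactate. Spermatocytes take up lactate and pyruvate made by Sertoli cells, whereas sperm depend on glycolysis along the flagellum and carry germ cell isoforms of several of its enzymes. H3K4me3 marks the promoters of genes that are active or open to transcription, the Abcam antibody also recognises H3K4me2, and acetylation of H3K9 accompanies active promoters.

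The lists held from 4883 to 15699 peaks for H3K4me3, from 17561 to 30943 for H3K4me2/3 and from 516 to 16003 for H3K9ac. Between 25.2% and 46.3% of all genes were called in an H3K4me3 list. The shortest H3K4me3 list was that of early pachynema experiment 2, and the shortest H3K9ac list was that of diplonema, in which 1.99% of genes were called. The leptonema library of experiment 2 stood apart. Its H3K4me3 list had peaks at 3 of 5 autosomal Sertoli cell markers (Sox9, Wt1 and Gata4, none at Amh and Cldn11) with a summed width of 7212 bp, against 0 bp to 245 bp in the other 9 lists. The H3K4me2/3 list of the same stage had peaks at 4 of the 5, with a summed width of 7695 bp, against 400 bp to 2642 bp in the other 4 lists. Of 6 spermatocyte markers, between 4 and 6 were called in every H3K4me3 list, and Sycp3 was called in all 10. No list gives a score or a read count, so the depth behind a call is unknown.

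Because the lists differ in length and peak width, the size of a call is given as the relative width. This is the summed width of the peaks at a gene over the median width, in the same list, at the 3725 genes with a peak in all 10 H3K4me3 lists. In the H3K4me2/3 and H3K9ac lists, the median was taken over those of the 3725 genes that had a peak in that list. The H3K9ac lists of leptonema and diplonema called 3053 and 412 genes in all, so their reference genes are fewer and differ between lists. A gene without a peak was set to 0, which means that no peak was called and not that the mark was absent. The reference width ran from 477 bp to 1326 bp over the H3K4me3 lists. In all, the 9 genes had 73 calls over the 20 lists, and experiments 1 and 2 gave the same call in 40 of 45 combinations of gene and stage (88.9%, against 88.7% over all genes). The 5 disagreements were Ldha, Ldhc and Eno1 at early pachynema, called in experiment 1 alone, and Gapdh and Pgam2 at late pachynema, called in experiment 2 alone. No start of another protein-coding gene lay under any peak of the 9 genes.

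The number of the 9 genes called was set beside the share of all genes called in the same list. For H3K4me3 it was 3 (38.7% of all genes) and 3 (46.3%) in leptonema, 2 (36.2%) and 2 (35.3%) in zygonema, and 4 (33.6%) and 1 (25.2%) in early pachynema. It was 4 (26.4%) and 6 (39.7%) in late pachynema and 5 (28.7%) and 5 (46%) in diplonema. The lists of leptonema and zygonema thus called 2 or 3 of the 9 genes and those of the 3 later stages 1 to 6, so that the groups overlapped. For H3K4me2/3 the counts from leptonema to diplonema were 5 (64.7%), 5 (59.4%), 6 (53.7%), 7 (55.4%) and 5 (53.3%). For H3K9ac they were 1 (14.8%), 2 (41.1%), 5 (35.3%), 1 (8.28%) and 1 (1.99%), with the highest count in early pachynema.

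**Figure D1:**
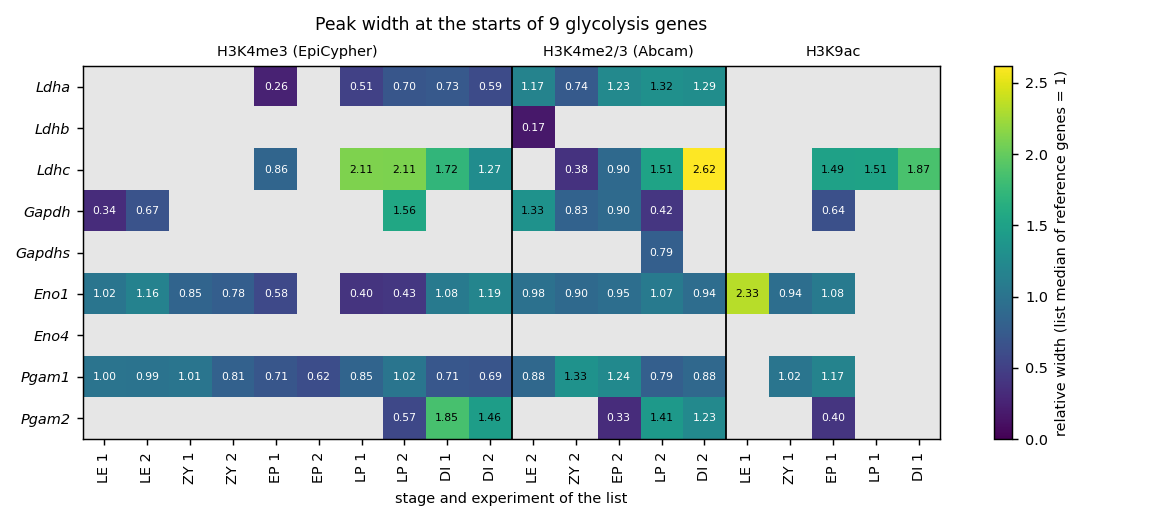
Relative width of the peaks at each gene (rows) in each list (columns, by antibody, stage and experiment; LE leptonema, ZY zygonema, EP early pachynema, LP late pachynema, DI diplonema), with grey where no peak was called. Ldhc and Pgam2 are grey in all early H3K4me3 lists and reach 2.11 and 1.85 later, Pgam1 is filled in all 10, and Eno4 is grey throughout.

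H3K4me3 followed 4 kinds of course among the 9 genes. Ldha, Ldhc and Pgam2 had no peak in the 4 lists of leptonema and zygonema and peaks in at least 3 of the 6 later lists, a pattern of 1.86% of all genes. Eno1 and Pgam1 were called from leptonema to diplonema. Gapdh was called in both leptonema lists and again in 1 list of late pachynema. Ldhb, Gapdhs and Eno4 had no H3K4me3 peak in any of the 10 lists, which was true of 45.9% of all genes.

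The lactate dehydrogenase genes Ldha and Ldhc lie in the same orientation on chromosome 7, with reference starts 15364 bp apart. Ldha encodes the A (muscle) subunit and Ldhc the C subunit of sperm. Their upstream sequences in GRCm38.p6 (the mm10 build, RefSeq starts) are shown on the plus strand, with every CG in capitals, because these 2 of the 3 promoter groups of Ldha differed in H3K4me3. The remaining group, a single start at -4364 bp from the reference start, had no peak in any list. The 250 bases of the main promoter of Ldha lie at chr7:46845554-46845803 and those of its downstream promoter at chr7:46846832-46847081. For Ldhc the 190 bases at chr7:46861013-46861202 are shown, which stop short of the first annotated exon.
Ldha main promoter: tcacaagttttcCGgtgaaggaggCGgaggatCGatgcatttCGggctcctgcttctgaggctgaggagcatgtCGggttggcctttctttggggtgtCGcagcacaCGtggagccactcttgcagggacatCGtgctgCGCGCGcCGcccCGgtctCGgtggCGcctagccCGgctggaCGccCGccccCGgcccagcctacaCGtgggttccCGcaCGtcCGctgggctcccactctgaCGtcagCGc
Ldha downstream promoter: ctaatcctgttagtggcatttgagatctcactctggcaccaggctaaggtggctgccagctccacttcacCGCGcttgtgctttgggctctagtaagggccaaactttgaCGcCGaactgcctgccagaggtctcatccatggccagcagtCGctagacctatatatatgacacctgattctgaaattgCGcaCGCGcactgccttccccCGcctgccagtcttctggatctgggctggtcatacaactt
Ldhc promoter: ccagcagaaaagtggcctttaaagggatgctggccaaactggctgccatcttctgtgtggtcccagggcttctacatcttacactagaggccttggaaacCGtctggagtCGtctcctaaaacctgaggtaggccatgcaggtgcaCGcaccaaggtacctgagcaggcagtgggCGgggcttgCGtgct
The main promoter of Ldha held 25 CG, the downstream promoter 9 and the stretch of Ldhc 5.

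Ldhc had no H3K4me3 peak in leptonema or zygonema. At early pachynema it had a peak of 610 bp in experiment 1 and none in experiment 2, the shortest of the 10 lists. At late pachynema the peaks were 1161 bp and 1922 bp wide, and at diplonema 1486 bp and 1688 bp. Every late pachynema and diplonema list therefore lay above every earlier list. In relative width these peaks measured 0.86 at early pachynema, 2.11 in both late pachynema lists, and 1.72 and 1.27 at diplonema. In late pachynema experiment 2 the peak was wider than those of 97.3% of the called genes. A peak in 5 or more later lists and in none of the early lists was found at 82 genes (0.396%), and of the 9 genes both Ldhc and Ldha had it.

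H3K4me2/3 at Ldhc was wider at each later stage than at the one before. The Abcam antibody gave no peak in leptonema, 641 bp in zygonema, 1468 bp in early pachynema, 3723 bp in late pachynema and 6873 bp in diplonema. The diplonema peak reached from -2611 bp to 4261 bp, counted from the start, and had rank 82 in width among the 11025 called genes. Absence in leptonema followed by a peak in all 4 later lists was a pattern of 31 genes (0.15%). H3K9ac was called in early pachynema (1444 bp), late pachynema (558 bp) and diplonema (608 bp) and not before. This H3K9ac course was shared by 13 genes (0.0628%), of which 5 also had H3K4me3 in 5 or more later lists and no early list: Ldhc, Ldhal6b, Ankrd60, Dkkl1 and Ptchd3. These names were chosen after their values were seen. Ldhal6b encodes a further lactate dehydrogenase isoform of the testis.

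Ldha was called in the same 5 later H3K4me3 lists as Ldhc, with narrower summed widths of 182 bp at early pachynema, 280 bp and 642 bp at late pachynema, and 630 bp and 788 bp at diplonema. All 5 lists had a peak, of 555 bp in diplonema experiment 2, that began between 1295 bp and 1349 bp after the reference start and so not at the main promoter, but inside a downstream group of protein-coding starts whose first member lies 1243 bp past it. Only the list of diplonema experiment 2 had a further peak at the main promoter, of 233 bp. H3K4me2/3 was called at both promoters in all 5 stages, with 2026 bp in leptonema, 1252 bp in zygonema, 2014 bp in early pachynema, 3241 bp in late pachynema and 3378 bp in diplonema. A peak in all 5 H3K4me2/3 lists was found at 47.8% of genes and, of the 9 genes, at Ldha, Eno1 and Pgam1. No H3K9ac peak was called at Ldha in any stage, as at 56.6% of genes.

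Ldhb, on chromosome 6, encodes the B (heart) subunit. No list of H3K4me3 or H3K9ac had a peak at any of its starts. Its only call was an H3K4me2/3 peak of 289 bp in leptonema, a relative width of 0.17. A call in leptonema alone was made for 3.8% of genes in the H3K4me2/3 lists. That leptonema list had peaks at 4 of 5 autosomal Sertoli cell markers. It also had peaks at 5 of 6 spermatogonial markers (Zbtb16, Gfra1, Kit, Dmrt1 and Sohlh1, none at Nanos3), with a summed width of 10577 bp. The same 5 were called in zygonema with 6382 bp, and 3 in each later list with 1225 bp to 3014 bp. The part of either cell type in the Ldhb call was not tested.

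**Figure D2:**
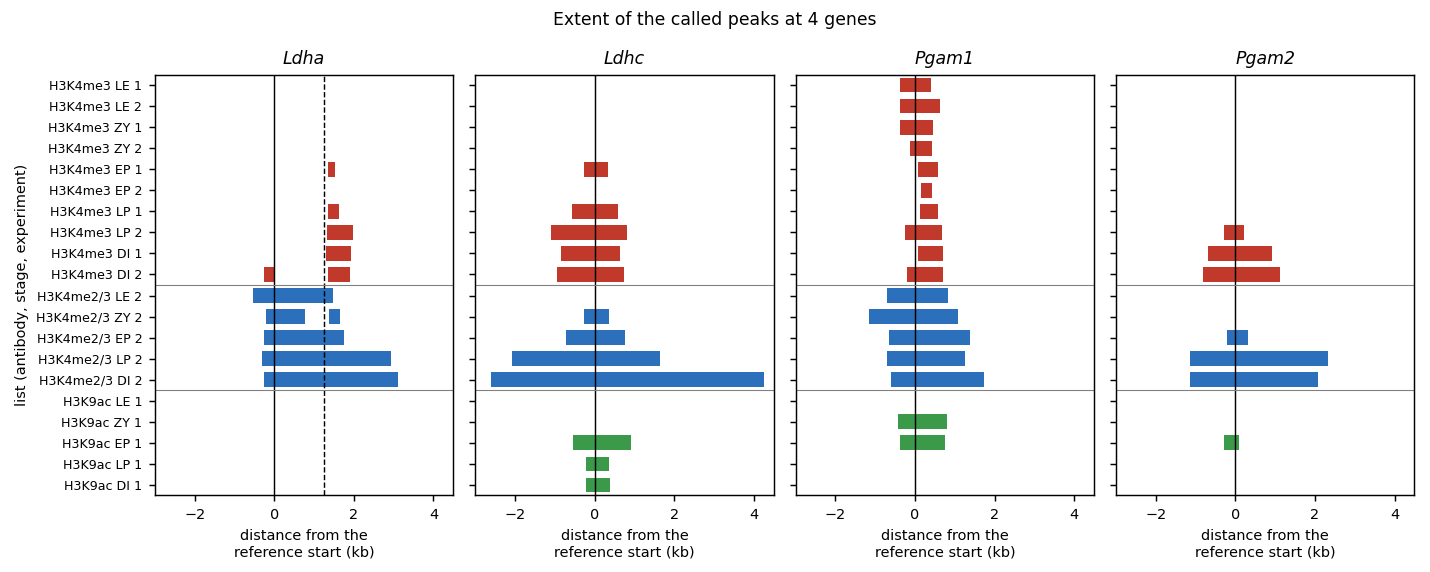
Extent of each called peak at Ldha, Ldhc, Pgam1 and Pgam2 (bars, by list from top to bottom) against the distance in kb from the reference start (solid line; the dashed line is the downstream promoter of Ldha). At Ldha 5 later lists have an H3K4me3 peak past the dashed line, and diplonema experiment 2 has a further one before the solid line. At Ldhc and Pgam2 the H3K4me3 peaks straddle the start, and at Pgam1 4 later peaks begin after it.

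The phosphoglycerate mutases Pgam1 and Pgam2 interconvert the phosphoglycerates upstream of enolase. Pgam1 is the widely expressed (brain) form and Pgam2 the form of muscle and sperm. Their promoters, 250 bases before the RefSeq starts at chr19:41911621-41911870 on the plus strand and chr11:5803797-5804046 on the minus strand, are shown for their contrast in CG, which is again in capitals.
Pgam1 promoter: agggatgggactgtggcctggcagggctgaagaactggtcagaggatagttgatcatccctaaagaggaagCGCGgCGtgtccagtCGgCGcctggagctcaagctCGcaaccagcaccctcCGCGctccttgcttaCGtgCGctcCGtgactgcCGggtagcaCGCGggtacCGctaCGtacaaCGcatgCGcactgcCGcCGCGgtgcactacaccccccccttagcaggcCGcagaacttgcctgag
Pgam2 promoter: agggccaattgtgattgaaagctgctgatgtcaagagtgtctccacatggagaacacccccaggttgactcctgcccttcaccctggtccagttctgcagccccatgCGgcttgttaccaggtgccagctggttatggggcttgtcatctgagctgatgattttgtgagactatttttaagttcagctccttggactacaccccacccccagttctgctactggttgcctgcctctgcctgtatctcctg
Pgam1 held 22 CG in this stretch and Pgam2 1.

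Of the 6 genes with a peak, Pgam2 was the last to be called for H3K4me3. It had no peak in leptonema, zygonema, early pachynema or late pachynema experiment 1. The peak measured 520 bp in late pachynema experiment 2, and 1602 bp and 1934 bp in diplonema. Both diplonema lists lay above every other list, with relative widths of 1.85 and 1.46. This set of 3 lists and no other was found at 218 genes (1.05%). H3K4me2/3 was first called a stage earlier, with 540 bp in early pachynema, 3475 bp in late pachynema and 3227 bp in diplonema, and none in leptonema and zygonema. That course was found at 70 genes (0.338%). The H3K4me2/3 list of early pachynema held 17561 peaks, against 6647 and 4883 for H3K4me3, and its antibody recognises H3K4me3 too. The part of list length in the earlier call was not tested. A narrow H3K9ac peak of 388 bp was called in early pachynema and in no other stage, which was the case for 1.81% of genes.

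Pgam1 was called in all 10 H3K4me3 lists, as were 18% of all genes. Its peaks ranged from 555 bp to 1017 bp in leptonema and zygonema and from 296 bp to 928 bp in the later lists, with relative widths of 0.81 to 1.01 and of 0.62 to 1.02, so that the groups overlapped. Counted from the start, the upstream edge lay between -388 bp and -383 bp in leptonema and in zygonema experiment 1, and at -128 bp in zygonema experiment 2. In 4 of the 6 later lists it began after the start, by 78 bp to 145 bp. Those 4 were the shortest H3K4me3 lists, with 4883 to 6647 peaks, and the others held 9124 peaks or more. The part of list length in the edge was not tested. The edges in late pachynema experiment 2 (-244 bp) and diplonema experiment 2 (-210 bp) lay between the early ones, so that the groups overlapped. The mean upstream edge was at -320.5 bp in the early lists and at -5.17 bp in the later lists. The shift of 315 bp was at percentile 91.4 of 969 genes with a lone start and 1 peak in every list, whose median shift was 30.9 bp. This measure was chosen after the values were seen. H3K4me2/3 covered the start in every stage with 1530 bp to 2251 bp in the early lists and 1948 bp to 2319 bp in the later ones. H3K9ac was called in zygonema (1218 bp) and early pachynema (1135 bp) alone, as at 15.5% of genes.

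The enolases Eno1 and Eno4 convert 2-phosphoglycerate to phosphoenolpyruvate. Eno1 is the ubiquitous alpha form and Eno4 a form required in sperm. Eno4 lies on chromosome 19. Its promoter, at chr19:58943175-58943424 on the plus strand, is shown because it was rich in CG (capitals) and had no peak.
Eno4 promoter: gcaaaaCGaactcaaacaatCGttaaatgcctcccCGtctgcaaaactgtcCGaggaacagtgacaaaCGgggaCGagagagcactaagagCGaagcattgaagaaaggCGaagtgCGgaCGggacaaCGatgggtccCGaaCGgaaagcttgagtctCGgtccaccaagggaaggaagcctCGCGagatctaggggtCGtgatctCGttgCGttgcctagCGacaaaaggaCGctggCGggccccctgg
No peak of any antibody was called at Eno4 in the 20 lists, which was true of 32.5% of all genes. Its start lies 198 bp from a start of Hspa12a, which runs the other way. Counted over all its protein-coding starts, Hspa12a was called in no H3K4me3 or H3K9ac list and in 2 H3K4me2/3 lists. No peak of those 2 lists touched the 500 bp on either side of an Eno4 start.

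Eno1 had H3K4me3 peaks of 798 bp and 1184 bp in leptonema and zygonema peaks of 710 bp and 532 bp. At early pachynema the peak was 410 bp in experiment 1 and was not called in experiment 2. The late pachynema peaks were 218 bp and 388 bp, and the diplonema peaks 935 bp and 1574 bp. In relative width Eno1 was at 0.78 to 1.16 in the early lists, at 0 to 0.58 in pachynema and at 1.08 and 1.19 in diplonema. H3K4me2/3 stayed between 1516 bp and 2622 bp over the 5 stages, with relative widths of 0.90 to 1.07. H3K9ac was called in leptonema, zygonema and early pachynema (1071 bp, 1130 bp and 1040 bp) and not later, as at 9.24% of genes. The leptonema H3K9ac peak had a relative width of 2.33 and was wider than those of 94.7% of called genes.

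Gapdh and Gapdhs encode the somatic and the sperm form of glyceraldehyde-3-phosphate dehydrogenase. Gapdhs has 2 annotated protein-coding starts 4274 bp apart on the minus strand of chromosome 7. Their 250 bases, at chr7:30743682-30743931 and chr7:30739408-30739657, are shown with CG in capitals because they are copies of each other.
Gapdhs first promoter: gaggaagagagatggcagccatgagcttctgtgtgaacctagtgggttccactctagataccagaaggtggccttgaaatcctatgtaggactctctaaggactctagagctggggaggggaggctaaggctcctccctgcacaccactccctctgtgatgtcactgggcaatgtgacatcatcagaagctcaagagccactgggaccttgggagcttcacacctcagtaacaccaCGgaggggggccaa
Gapdhs second promoter: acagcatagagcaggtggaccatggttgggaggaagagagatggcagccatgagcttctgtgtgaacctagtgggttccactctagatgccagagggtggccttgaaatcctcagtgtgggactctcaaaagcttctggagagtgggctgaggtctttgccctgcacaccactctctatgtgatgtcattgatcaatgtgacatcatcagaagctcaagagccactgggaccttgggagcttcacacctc
They matched at 203 of 217 aligned bases (93.5%), and 18 of the 201 stretches of 50 bases in the first also occurred in the second. The reads of the study were longer than 50 bases, and whether they could be placed in 1 copy was not examined. Only the 250 bases before each start were compared. The effect of the likeness of the copies on the calls was not tested. Gapdhs had no H3K4me3 or H3K9ac peak. In late pachynema, H3K4me2/3 was called in 3 peaks of 680 bp, 1111 bp and 155 bp that flanked the starts without covering them. The other 4 H3K4me2/3 lists had none, a pattern of 0.623% of genes.

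Gapdh, on chromosome 6, had H3K4me3 peaks of 263 bp and 681 bp in leptonema. None was called in zygonema, early pachynema or diplonema. Late pachynema had none in experiment 1 and 2 peaks with a summed width of 1425 bp in experiment 2, of which 1 peak of 903 bp lay upstream, at a start of other transcripts, and 1 of 522 bp past the main start. The groups of early and later lists overlapped. H3K4me2/3 was called from leptonema to late pachynema (2313 bp, 1394 bp, 1481 bp and 1021 bp) and not in diplonema, as at 1.88% of genes. H3K9ac was called in early pachynema alone (614 bp). The leptonema list of experiment 2, with peaks at Sertoli cell markers, had the wider of the leptonema H3K4me3 peaks at Gapdh. A peak was also called in the list of experiment 1, in which none of these markers was called. Of 6 spermatogonial markers, Dmrt1 was called in leptonema experiment 1 (1262 bp), Kit and Dmrt1 in leptonema experiment 2 (summed width 1833 bp), Dmrt1 in zygonema experiment 1 (890 bp), and none in the other 7 H3K4me3 lists. The part of either cell type in the Gapdh calls was not tested.

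The question of the pairs was whether the testis gene took another course than its somatic counterpart. In each H3K4me3 list the relative width of the somatic gene was subtracted from that of the testis gene, and the 6 later lists were compared with the 4 early ones by a two-sided exact permutation test. The 210 possible splits allow no p below 0.00476. With 2 lists a stage, no comparison between 2 stages can go below 0.333. The 5 tests are given with unadjusted p-values.

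Ldhc was wider than Ldha in the later lists that called them. Neither gene was called in any of the 4 early lists, so the early difference of 0 holds no information on width. The test of this pair thus rests on the widths in the later lists. The difference was 0 ± 0 (SD, n = 4) early and 0.879 ± 0.583 (n = 6) later, with p = 0.0381 by the exact permutation test. In experiment 1 the mean difference between later and early lists was 1.06 and in experiment 2 it was 0.694. As both genes were called in the same 5 lists, this was a difference in width: with calls in place of widths it was 0 (p = 1 in the exact test). For Ldhb and Ldhc the late minus early value was 1.34 (p = 0.0333, exact permutation test). Ldhb was 0 throughout, so this test is that of Ldhc on its own. Leaving out any of the 4 early lists ended both calls, with p = 0.0833 for Ldha and Ldhc and 0.0714 for Ldhb and Ldhc in the exact tests.

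The difference between Pgam2 and Pgam1 was -0.956 ± 0.0959 (n = 4) early and -0.118 ± 0.850 (n = 6) later. The late minus early value of 0.838 did not pass (p = 0.0952, exact permutation test). Pgam2 was the wider of the pair in both diplonema lists, by 1.14 and 0.77, and the narrower in the other 8. Without late pachynema experiment 1 the late minus early value was 0.987 with p = 0.0397 in the exact test. With the same number of widest peaks from every list it was 0.307 (p = 0.481, exact permutation test). For Eno1 and Eno4 the value was 0.340 (p = 0.190, exact permutation test) and for Gapdh and Gapdhs -0.0100 (p = 1). Since Eno4 and Gapdhs were at 0, these are the courses of Eno1 and Gapdh with the sign turned.

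**Figure D3:**
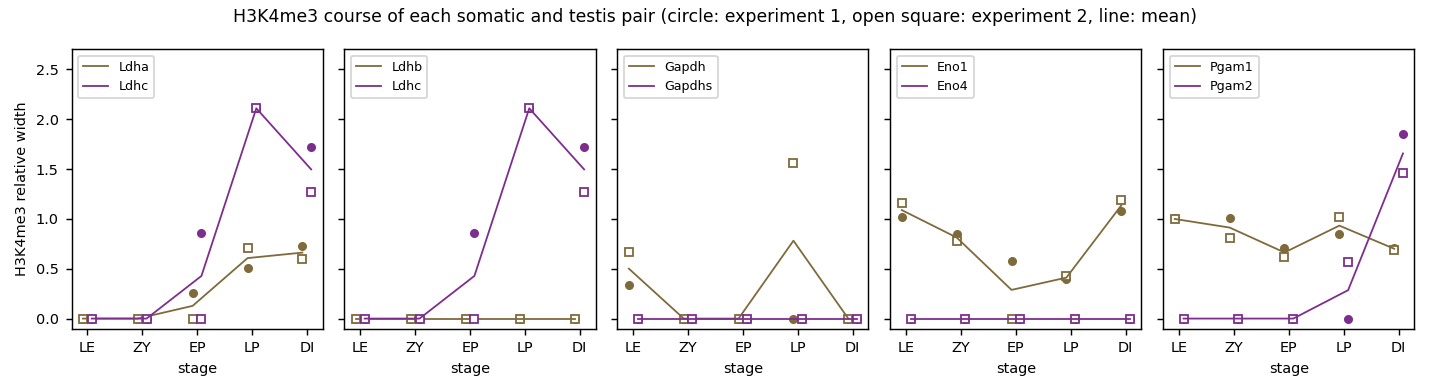
H3K4me3 relative width of the somatic gene (brown) and the testis gene (purple) of each of the 5 pairs by stage, with filled circles for experiment 1, open squares for experiment 2 and lines through the mean of both. Ldhc lies above Ldha at late pachynema and diplonema, Pgam2 crosses Pgam1 at diplonema, and Ldhb, Gapdhs and Eno4 stay at 0.

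Across all genes, the same test of relative width was run on the 11204 genes with a peak in at least 1 of the 10 H3K4me3 lists, which took in 6 of the 9 genes. Ldhb, Gapdhs and Eno4 could not be tested. After Benjamini-Hochberg adjustment 0 genes passed 0.05 (0%), the smallest adjusted p being 0.0648 at 823 genes that had the smallest possible p. At least 1068 such genes would have been needed. At an unadjusted p under 0.05, 611 genes (5.45%) were wider later and 2020 (18%) wider early. Ldhc (difference 1.34, p = 0.0333, adjusted p = 0.164) and Ldha (0.465, p = 0.0333, adjusted p = 0.164) were among the former in this exact permutation test. Without any 1 of the 4 early lists, p was 0.0714 for both in the exact permutation test. Ldha was no longer called with the wider peaks of each list (0.08, p = 1), with equal list sizes (0.22, p = 0.2), or with widths in bp or as percentiles (p = 0.0571 each, exact permutation tests). In the same exact permutation test, Pgam2 (0.647, adjusted p = 0.564), Gapdh (0.0100, adjusted p = 1), Pgam1 (-0.191, adjusted p = 0.269) and Eno1 (-0.340, adjusted p = 0.439) were not called either way. The median difference was 0.238 over these 6 genes and -0.0969 over all genes tested. Ldha, Ldhc and Pgam2 entered only through their later lists, so their direction was fixed by that.

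The 9 genes were next set against the CpG content of their promoters, which the choice of genes did not use. CpG observed over expected is the number of CG in the 250 bases before a start over the number that its C and G content predicts. Over 31356 autosomal RefSeq promoters the median was 0.379. The lowest values were those of Gapdhs (0.0535 and 0) and Pgam2 (0.0571), within the lowest 8.28% of promoters. Ldhc had 0.433 and 0.149 at its 2 RefSeq starts. Gapdh had 0.422, Eno1 0.469 to 0.663, Ldhb 0.717, Pgam1 0.860 and the main promoter of Ldha 0.886, against 0.495 at its downstream promoter. Eno4 had 1.12, above 98.3% of promoters. Against the somatic range of 0.422 to 0.886, Gapdhs and Pgam2 were below, Ldhc was below at 1 start and near the lower end at the other, and Eno4 was above.

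**Figure D4:**
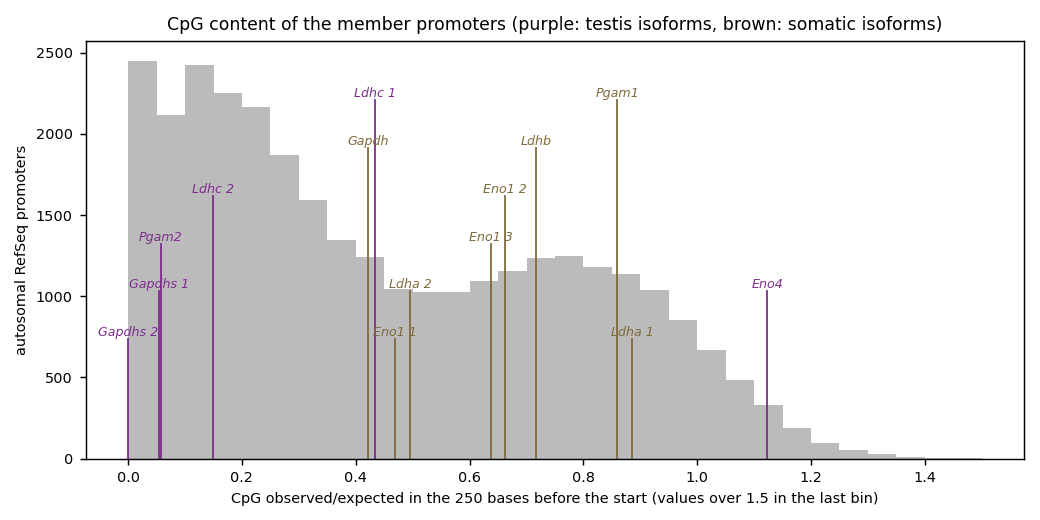
Number of autosomal RefSeq promoters (grey bars) by CpG observed over expected in the 250 bases before the start, with lines at the promoters of the testis genes (purple) and the somatic genes (brown; numbers count the starts of a gene; the height of a line has no meaning). Gapdhs and Pgam2 lie at the left edge and Eno4 at 1.12 on the right.

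Taking for each gene the highest CpG value over its GENCODE starts, 20697 of the 20698 genes could be classed. Of 11028 genes at 0.6 or more, 31.9% were called in all 10 H3K4me3 lists and 4.85% had no peak in any of the 20 lists. Eno4, at 1.12, belonged to these 535 genes without a peak, and Pgam1, at 1.11, to those called in all 10 lists. Of 1801 genes under 0.1, 92.6% had no peak at all, and 7 (0.389%) had no early H3K4me3 peak and at least 3 later ones. Pgam2, at 0.0557, was 1 of these 7. Gapdhs, at 0.0535, was also in this class, and Ldhc, at 0.534, fell between the classes.

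Short motifs were searched on both strands of the same 250 bases, without asking whether any protein binds them. TGACGTCA, the palindromic cAMP response element, was found in the main promoter of Ldha alone among the 9 genes, from base -12 to base -5 before the RefSeq start, and in 1.58% of all promoters. GGGCGG, a GC box, was found at the main promoter of Ldha, at Eno1 and at Ldhc, and in 33.0% of all. CAACNG, a form of the motif of the MYB family, which includes the meiotic regulator MYBL1, was present in 28.8% of promoters. A second form, TAACNG, was present in 19.9%. Of the 9 genes only Ldhc had both, with 4 matches in the first 34 bases before the RefSeq start, some of which overlap. Of these, 3 fell in 15 bases at chr7:46861229-46861243, which lie in the first exon of an annotated Ldhc transcript and read CCGTTATAACTGTTG (all capitals). The downstream promoter of Ldha had 1 match to the second form. The TATA box, spelled TATAAA, was at none of the 9 genes and in 12.4% of promoters.

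Beyond the pairs, 38 autosomal genes of glucose uptake, glycolysis and lactate transport were counted, from a list that also has 3 X-linked genes (Pgk1, Pdha1 and Pfkfb1) that the lists, limited to chromosomes 1 to 19, do not cover. Between 18.4% and 57.9% of the 38 were called in an H3K4me3 list, against 25.2% to 46.3% of all genes. In leptonema the share was 21.1% and 42.1%, against 38.7% and 46.3% of all genes. In zygonema it was 21.1% and 18.4%, against 36.2% and 35.3%. It was 26.3% and 18.4% in early pachynema, against 33.6% and 25.2%, and 18.4% and 42.1% in late pachynema, against 26.4% and 39.7%. In diplonema it was 42.1% and 57.9%, against 28.7% and 46%. Of the 24 with a peak, 0 passed the adjusted test, 3 were wider later (5.45% of all genes tested were) and 2 wider early (18% of all) at an unadjusted p under 0.05. Pfkm, which encodes muscle phosphofructokinase, the lactate transporter Slc16a1 and its partner Bsg were called in all 10 lists, as were 18% of all genes, and 14 genes in none, as were 45.9% of all.

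The testis retrogenes and isoforms of that list differed among themselves. Pgk2, the autosomal retrogene of the X-linked Pgk1, had H3K4me3 peaks of 853 bp in late pachynema experiment 2 and of 779 bp and 1997 bp in diplonema, the same 3 lists as Pgam2. Its H3K4me2/3 peaks were 328 bp in early pachynema, 5111 bp in late pachynema and 4982 bp in diplonema, with none before, again the stages of Pgam2. Ldhal6b was called in all 6 later H3K4me3 lists, from 501 bp to 1776 bp, and in none of the early ones, at a promoter that the antisense transcript Gm29050 also covers (p = 0.00476 by the exact permutation test, adjusted p = 0.0648). Like Ldhc, it entered the test only through its later lists, so its direction was fixed by that. Pdha2, the autosomal form of a pyruvate dehydrogenase subunit, had 2140 bp in leptonema experiment 2 and 2006 bp in diplonema experiment 2 and no other H3K4me3 peak. The aldolase retrogene Aldoart1 had no peak in any list, and Aldoart2 had H3K4me2/3 alone, from 276 bp to 1072 bp in all 5 stages.

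A further 3 genes had the smallest possible p (0.00476, exact permutation test, adjusted p = 0.0648) and were chosen for naming after their values were seen. Slc2a3, the glucose transporter GLUT3, had relative widths from 1.56 to 2.38 in the 6 later lists against 0 to 1.04 early. Slc16a7, the lactate and pyruvate transporter MCT2, averaged 1.36 ± 0.212 (n = 6) later and 0.169 ± 0.337 (n = 4) early, when its only peak was in leptonema experiment 2, the library with Sertoli cell markers. Pkm, which encodes muscle pyruvate kinase, was called in all 4 early lists with 833 bp to 1571 bp and later only with 158 bp and 167 bp. A peak in all 4 early lists and in 2 or fewer later lists was found at 2.75% of genes and at none of the 9 genes of the pairs.

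**Figure D5:**
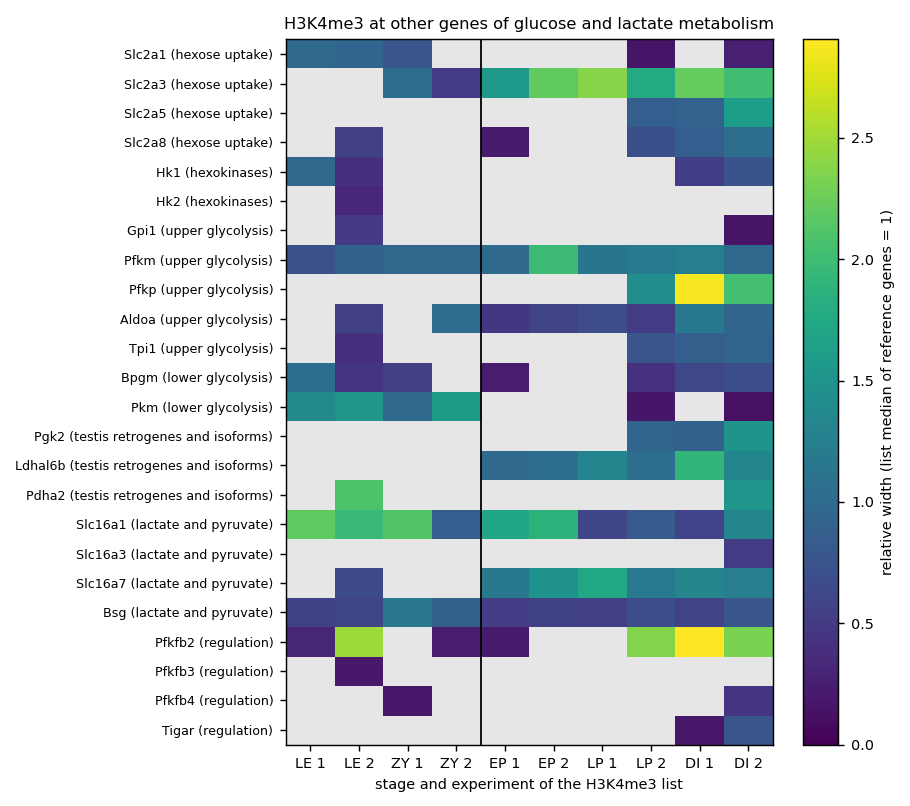
H3K4me3 relative width in the 10 lists (columns, the vertical line parts early from later lists) at the 24 other genes of glucose and lactate metabolism with at least 1 peak (rows, with their group), grey where none was called. Slc2a3, Ldhal6b and Slc16a7 are filled in all 6 later lists and Pkm in all 4 early ones.

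Most genes with the late course of H3K4me3 had an H3K4me2/3 peak in leptonema, as did most genes of the series. Of the 385 genes with no early H3K4me3 peak and at least 3 later ones, 316 (82.1%) had it, as Ldha did. The share over all genes in that list was 64.7%. That list held 30943 peaks, against 13095 for H3K4me3 in leptonema experiment 2, and its antibody recognises H3K4me3 too. The part of list length in the share was not tested. Ldhc was among the 69 (17.9%) without it, and Pgam2 among the 54 (14.0%) without it in both leptonema and zygonema. The H3K4me2/3 lists came from a single experiment, so these stage calls have no replicate.

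The genes whose H3K4me3 course was most like those of Ldhc and Pgam2 were found by the Euclidean distance in relative width over the 10 lists. For Ldhc these were Csl (distance 0.929), 4933414I15Rik (0.968) and Rai14 (1.00), which had peaks in 5, 4 and 7 lists. For Pgam2 they were 1700125H20Rik (0.230), Mroh2b (0.238) and Cmtm2b (0.340), each with peaks in 3 lists.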

How the data were processed

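Nuclei of 5 prophase stages were profiled by ChIP-Seq. The authors mapped reads to mm10 with BWA mem (0.7.12) and called broad peaks per library with MACS2 (2.1.2) against stage-matched input, which is not stated for H3K9ac. The deposited lists give peak positions on chromosomes 1 to 19 with no score, so the depth is unknown. Of 51 samples, the 31 without a list were not analysed here. The 9 genes and the pathway lists were chosen with earlier results of these data known, and all 9 genes, the testis retrogenes, pathway genes past the adjusted test and the 3 nearest genes were to be named. Peaks were joined to GENCODE M21 starts (500 bp either side, 1 bp overlap) with Python 3.11.15 and numpy 2.4.6. Relative widths were compared by two-sided exact permutation tests over 210 splits with Benjamini-Hochberg adjustment, checked on simulated data and against scipy 1.17.1. No label ties experiments 1 and 2 to separate animals, so p-values measure only the spread between these samples. Promoters came from the RefSeq table of GRCm38.p6. As too few symbols matched it, CpG classes were read from the genome at GENCODE starts, for 20697 of 20698 genes. Other windows, overlaps, transcript sets, peak thresholds and left-out libraries were tried.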

Additional observations from a re-analysis of the deposited data

How the results depend on the processing

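The lists hold no scores, so a peak near the caller's threshold cannot be told from a strong one, and H3K4me2/3 and H3K9ac have no replicate. The count of 73 member calls stayed within 1.5 times in all 30 alternatives and was 66 to 72 with 1 library left out. For H3K4me3 at Ldha, the 5 calls became 1 with the wider peaks of each list alone and 3 with equal list sizes, the 3 at Gapdh became 1 with either, and the 9 at Eno1 became 5 with the wider peaks. Starts of Ldha taken by promoter, chosen after seeing the data, gave 0 calls at the first group and 1 at the main promoter. No gene passed the adjusted test in any of 21 alternatives. The unadjusted count of 2631 was 1569 with the wider peaks, 1692 with equal list sizes, 530 with calls, and 1896 to 2752 with 1 library left out. The late minus early value for Ldha and Ldhc was 0 with calls and 0.743 to 1.09 with 1 library left out (exact permutation p 0.00794 to 0.0833). For Ldhb and Ldhc it was 1.19 to 1.66 (p 0.0159 to 0.0714), and for Pgam1 and Pgam2 0.583 to 0.987 (p 0.0397 to 0.111), and with equal list sizes 0.307 (p = 0.481, in exact permutation tests). Eno1 and Eno4 reversed to -0.00579 with equal list sizes and ran from 0.217 to 0.455 with 1 library left out. Gapdh and Gapdhs reversed to 0.333 with calls and 0.197 with width percentiles, and ran from -0.148 to 0.251. Single genes reversed likewise: Eno1 to 0.00579 and Pgam1 to 0.0895 with equal list sizes, and Gapdh to -0.333 with calls, -0.197 with percentiles and between -0.251 and 0.148 with 1 library left out. The cause was not tested. Same-numbered experiments did not deviate together (correlations of 10 pairs of stages from -0.231 to 0.228, 1 over 0.1). Permuting within the replicate block kept the value of 0.879 for Ldha and Ldhc with p = 0.05 (exact permutation), which does not pass, and changed no other call among the pairs. The unadjusted call of Ldha on its own also ended, with p = 0.05, and that of Ldhc stayed, with p = 0.04 (exact permutation within the block).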

Other observations

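Other genes of the pathway had late peaks at promoters that carried H3K4me2/3 in all 5 stages, and these genes were chosen after their values were seen. Pfkp, which encodes the platelet form of phosphofructokinase, had H3K4me3 peaks of 1299 bp in late pachynema experiment 2 and of 2491 bp and 2699 bp in diplonema, and none in the other 7 lists. Slc2a5, the fructose transporter GLUT5, had 788 bp, 793 bp and 2163 bp in the same 3 lists. These are the lists in which Pgam2 and Pgk2 were called, but Pgam2 and Pgk2 had no H3K4me2/3 in leptonema and zygonema.

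Eno3, the muscle enolase, was also chosen after its values were seen. It had no H3K4me3 peak in any list and H3K4me2/3 peaks of 3484 bp in leptonema, 4041 bp in early pachynema, 3955 bp in late pachynema and 5218 bp in diplonema and none in zygonema.

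Pfkfb2, a regulator of phosphofructokinase, had wide H3K4me3 peaks at both ends of the course, with 2535 bp in leptonema experiment 2, 2161 bp in late pachynema experiment 2 and 2511 bp and 3075 bp in diplonema. The other 6 lists had 0 bp to 242 bp. The leptonema peak came from the library with peaks at Sertoli cell markers, whose part in it was not tested.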
